A study of Mus musculus with 194 samples.

Results

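Egr1, Egr3 and Egr4 encode zinc-finger transcription factors of the early growth response family, and Nab1 and Nab2 encode the corepressors that bind Egr proteins. These 5 genes were taken by symbol from a table of 19363 genes, and each was present and passed the filter on low counts in all 5 brain structures studied.

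Egr genes are immediate-early genes: calcium and kinase signals in an active neuron act on factors already bound at their promoters, so that transcription starts without new protein synthesis. Egr proteins bind GC-rich DNA, and in the striatum their transcripts are common markers of neurons recruited by dopamine and glutamate. Egr1 and Egr3 carry the domain through which NAB proteins dock, Nab2 is itself described as an Egr target in other cells, and the NAB proteins in turn bring histone deacetylase complexes to Egr-bound genes, a feedback loop that limits Egr activity. Egr4 is the family member usually described as not binding NAB proteins.

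The data were 3′ RNA-seq counts from 5 structures of male C57BL/6OLAHSD mice given cocaine: the dorsal striatum (DS) and nucleus accumbens (NAc), both rich in dopamine-receptive projection neurons, the amygdala (Amy), limbic cortex (LCtx) and lateral hypothalamus (LH). Mice received a single dose (acute), the last of a series of daily doses (repeated, named chronic in the labels) or a dose after abstinence from such a series (challenge), and tissue was taken 0, 1, 2 or 4 hr later. The 0 hr mice got no injection that day: they were cocaine-naive for acute, sampled the day after their latest dose for repeated, and abstinent for challenge. There were no saline-injected groups, so cocaine cannot be told apart from injection and handling. A DS group held 3 to 5 mice, an NAc or Amy group 2 to 4, an LCtx group 1 to 4 and an LH group 1 or 2, and structures shared mice. In dissected tissue, fewer cells of a type and less RNA per cell cannot be told apart.

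The 194 libraries held 1193306 to 10367769 counts (median 3296648) and came from 166 pieces of tissue, of which 28 were sequenced in 2 runs. The acute DS libraries came from another run than the repeated and challenge ones, and a further run held 2 mice of every DS group. The sample names give each experience experiment numbers of its own, so the experiment cannot be told apart from the experience, also within a run. Repeated DS mice came from 2 experiments, which lay apart on the first principal component of the repeated DS libraries (-12.1 to -6.70 against 3.97 and higher, 42.3% of the variance); with the experiment as a covariate all 17 DS calls of members described below were kept. Summed striatal projection neuron markers were at 7207 to 9934 CPM (counts scaled to the library total) in the DS and 3026 to 5217 in the NAc, against at most 758 in LCtx, Amy and LH. Lateral hypothalamic markers were at 9298 to 16101 CPM in the LH and 681 to 1610 in the Amy. Cortical excitatory neuron markers were at 1004 to 1875 CPM in the LCtx, 549 to 1400 in the Amy and 32.9 to 602 in the NAc. How far neighbouring tissue entered the pieces was not tested. The naive DS mouse 1 stood apart on the first principal component of the acute DS libraries (39.8, on a component holding 44.9% of the variance), with choroid plexus markers at 195 CPM against 49.3 to 55.1 in the other 3 naive mice. Without it the acute 1 hr changes were 2.37 for Egr4, 1.35 for Egr1, 0.82 for Egr3 and 0.80 for Nab2 on the log2 scale, all called, and Egr3 at 2 and 4 hr changed by 0.75 and 0.99 and Egr4 at 2 hr by 1.13, also called. No 2 libraries compared agreed within sampling noise: the lowest chi-square per degree of freedom over 294 pairs was 1.56.

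The upstream sequences of the members are shown because the results separate the strongly induced Egr4 from Nab1, which was called in no time-course contrast. RefSeq held a promoter entry for 3 of the 5, Egr4, Nab1 and Nab2 (GRCm38.p6). Egr4 lies on chr6:85511121-85513589, minus strand (GRCm38). Its 250 bases upstream of the start, chr6:85513590-85513839 on the minus strand and written 5′ to 3′, hold the short cAMP response element TGACG on the opposite strand at 177 and at 109 bases before the start, which the capitals mark as CGTCA.
Egr4: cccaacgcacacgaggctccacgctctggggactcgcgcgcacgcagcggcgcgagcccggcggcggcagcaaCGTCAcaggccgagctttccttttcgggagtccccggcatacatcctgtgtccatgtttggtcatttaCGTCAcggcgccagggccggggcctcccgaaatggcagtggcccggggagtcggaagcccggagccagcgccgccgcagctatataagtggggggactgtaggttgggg

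Nab1 lies on chr1:52457294-52500679, minus strand. The region before its RefSeq start, which lies inside the first exon of the longest annotated transcript, holds the Egr consensus GCGTGGGCG once on each strand, at 141 to 133 and at 109 to 101 bases before that start, shown in capitals in windows that are both written on the minus strand, chr1:52500571-52500599 and chr1:52500539-52500567.
Nab1, motif on the opposite strand: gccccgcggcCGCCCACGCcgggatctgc
Nab1, motif on the gene strand: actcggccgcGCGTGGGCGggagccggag

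Over 32851 promoter entries of the same length, searched on both strands, TGACG was in 17.8% and at 2 or more places in 3.90%. The Egr consensus was in 0.536%, and 7 entries held it at 2 or more places. These shares are over entries with a median GC content of 52.4%, against 68.0% in the Egr4, 72.8% in the Nab2 and 80.8% in the Nab1 entry. The full element TGACGTCA (1.55% of entries), the CArG box (1.47%) and TATAAA (12.4%) were in none of the 3 members, and the Nab2 entry held none of the motifs searched. That entry, chr10:127666704-127666953, lies within the annotated Nab2 gene, so the bases before the annotated gene were not searched. The Nab1 entry also held TGACG once, at 123 bases before its start. These matches describe letters in a window and were not tested for binding.

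In the DS, cocaine was followed within 1 hr by higher Egr4, Egr1, Egr3 and Nab2 after acute exposure, while Nab1 did not pass the test at any time. A gene was called when the Benjamini-Hochberg adjusted p of edgeR's quasi-likelihood test over all 12918 genes tested was under 0.05 and the fold change over 1.2. After acute cocaine 4 of the 5 members were called at 1 hr, against 1.05% of all genes, and in the same 4 every mouse lay above every naive mouse, as in 2.32% of all genes. After repeated cocaine 2 of 5 were called (0.263% of genes), and after challenge 3 of 5 (0.348%). At 2 hr the counts were 3, 2 and 2 of 5 after acute, repeated and challenge cocaine (1.07%, 0.0852% and 0.224% of genes), and at 4 hr 1, 0 and 0 (0.921%, 0% and 0.0155%). All 17 calls were increases. When each experience was fitted alone, on genes that changed over time in any of them, and called by 1 test over its times, 4 further values counted as called. These were -0.28 for Nab2 at 2 hr after acute cocaine (adjusted p = 6.97e-06), -0.27 for Egr1 at 4 hr after repeated cocaine (6.95e-05), and after challenge 0.49 for Egr1 at 2 hr (0.000536) and 0.45 for Egr3 at 4 hr (0.00332). The adjusted p there is that of the gene over all times of the experience, not of the single time.

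**Figure D1:**
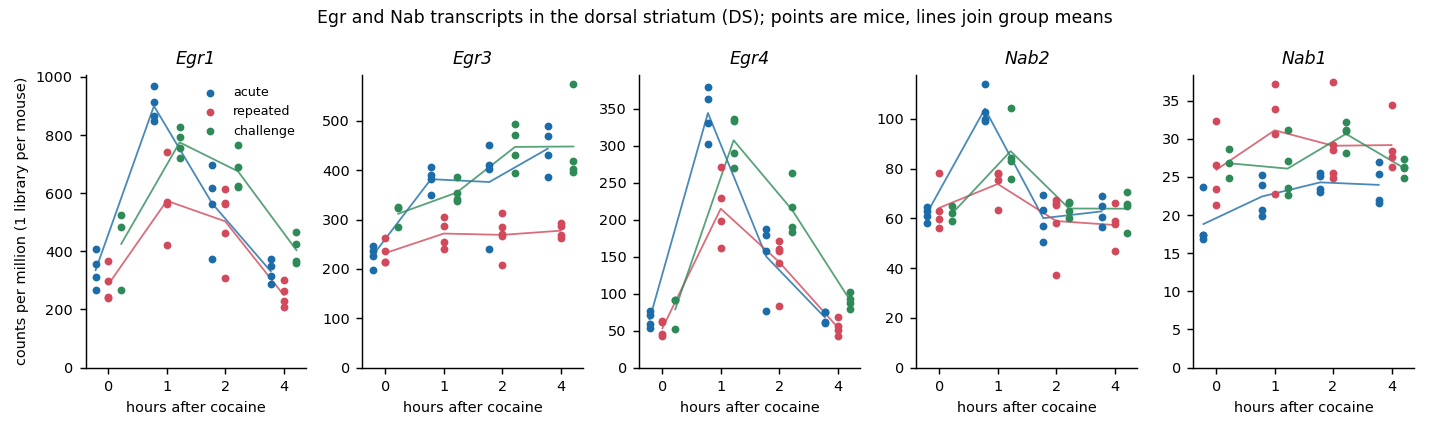
CPM of the 5 members in each DS mouse (points) at 0, 1, 2 and 4 hr after acute, repeated or challenge cocaine, with lines joining group means; time points are evenly spaced and each gene has its own axis from 0. Egr4 and Egr1 peak at 1 hr and are back at their 0 hr level by 4 hr, Egr3 stays high to 4 hr after acute cocaine, Nab2 lies above all 0 hr mice at 1 hr after acute and challenge cocaine but overlaps them after repeated cocaine, and Nab1 stays between 16.8 and 37.4 CPM.

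Egr4 had the largest change of the 5 in every DS experience at 1 hr. In naive mice it was at 52.9, 77.0, 71.0 and 59.1 CPM, and 1 hr after acute cocaine at 379.7, 303, 332 and 364 CPM. The groups were far apart, with a log2 fold change of 2.46 (SE 0.19, adjusted p = 3.59e-15). By 2 hr Egr4 was at 187, 158 and 179 CPM in 3 mice and at 76.0 in the remaining one, mouse 1, which lay among the naive mice. The log2 fold change at 2 hr was 1.23 (SE 0.19, adjusted p = 8.07e-05), and 1.44 without mouse 1. This mouse had Egr1, Egr3 and Egr4 near the 0 hr levels. Mouse 5 of the repeated 2 hr group had Egr1 and Egr3 near the 0 hr levels, and its Egr4 was the lowest of its group though above every 0 hr mouse. The labels of both mice were kept. At 4 hr all 4 mice were within the naive range, at 60.5 to 75.7 CPM.

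After repeated cocaine Egr4 went from 45.9, 62.9, 42.4 and 61.3 CPM at 0 hr to 198, 161, 272 and 229 CPM at 1 hr. All 1 hr mice lay above every 0 hr mouse, as in 1.65% of all genes. The log2 fold change was 2.01 (SE 0.19, adjusted p = 1.24e-11). At 2 hr it was at 142, 158, 171 and 160.3 CPM in 4 mice and at 82.6 CPM in mouse 5. All still lay above every 0 hr mouse, as in 0.728% of all genes (log2 fold change 1.44, SE 0.19, and 1.58 without mouse 5). After challenge it went from 92.0, 91.9 and 52.5 CPM to 289.8, 337, 334 and 269.7 CPM at 1 hr (log2 fold change 1.97, SE 0.20, adjusted p = 1.35e-10). At 2 hr the challenged mice held 184, 263, 217 and 190.0 CPM (log2 fold change 1.46, SE 0.20), though a second library of mouse 1, from the shared run, held 77.2 CPM. Egr4 was thus the only member called at both 1 and 2 hr in all 3 experiences, and it had returned to 42.4 to 102 CPM at 4 hr.

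Egr1, the family member most used as a marker of neuronal activity, followed the same course with smaller folds. Naive mice had 266, 355, 408 and 310.2 CPM, and mice 1 hr after acute cocaine had 914, 867, 849 and 970.2 CPM. The log2 fold change was 1.46 (SE 0.17, adjusted p = 6.14e-09). At 2 hr 3 mice had 698, 564 and 618 CPM and mouse 1 had 375, within the naive range. The 2 hr change of 0.74 (SE 0.17, adjusted p = 0.0118) lost its call without naive mouse 1 (0.63, adjusted p = 0.164), without mouse 2 or without mouse 4 of the 2 hr group (adjusted p = 0.13 and 0.0581), and was 0.89 without mouse 1 of that group.

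After repeated cocaine Egr1 went from 239, 368, 241 and 297 CPM to 571, 421, 741 and 562 CPM at 1 hr (log2 fold change 0.99, SE 0.17, adjusted p = 0.000133). At 2 hr 4 mice had 464 to 613 CPM and mouse 5 had 309.6, inside the range of the 0 hr mice. The 2 hr change of 0.82 (SE 0.16, adjusted p = 0.00695) lost its call when 0 hr mouse 1, 0 hr mouse 3 or 2 hr mouse 3 was left out (adjusted p = 0.07 to 0.154), and was 0.96 without mouse 5. After challenge Egr1 went from 526, 483 and 267 CPM to 793, 723, 829 and 755 CPM at 1 hr. All lay above the abstinent mice, as in 3.5% of all genes (log2 fold change 0.87, SE 0.18, adjusted p = 0.00528). Abstinent mouse 3 carried much of that change, which was 0.63 without it (adjusted p = 0.349). At 4 hr Egr1 differed from 0 hr by -0.03, -0.22 and -0.07 on the log2 scale after acute, repeated and challenge cocaine, none called.

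Egr3 was called at more times than Egr4 and Egr1 after acute cocaine. It rose after acute cocaine at 1, 2 and 4 hr, by 0.79, 0.72 and 0.96 on the log2 scale (SE 0.12 at each time), from 247, 227, 235 and 198 CPM in naive mice. At 1 hr the mice had 406, 349, 383 and 390.0 CPM, and at 4 hr 386, 429.9, 468 and 490.2 CPM. At both times all lay above every naive mouse, as in 2.32% and 4.03% of all genes. At 2 hr 3 mice had 403 to 450.4 CPM and mouse 1 had 239.6, again inside the naive range; without it the 2 hr change was 0.88. The adjusted p was 5.15e-06, 0.000162 and 4.17e-07 at 1, 2 and 4 hr. Of the 5 members Egr3 was the only one called at 4 hr.

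Repeated cocaine gave no called change of Egr3. The 0 hr mice had 236, 214.6, 214 and 263 CPM and the 1 hr mice 287, 239.7, 305 and 255 CPM, which overlap. The log2 differences were 0.22, 0.22 and 0.24 at 1, 2 and 4 hr (SE 0.11 to 0.12, adjusted p = 0.9 to 1), and 0.30 at 2 hr without mouse 5. After challenge the abstinent mice had 326, 324 and 285 CPM and the mice at 2 hr had 395, 493, 471 and 430.2 CPM. All were higher, as in 3.21% of all genes (log2 fold change 0.54, SE 0.12, adjusted p = 0.0279). That call was lost without any 1 of 5 of the 7 mice compared (adjusted p = 0.0828 to 0.442) and when the libraries of a mouse were summed over runs (0.55, adjusted p = 0.0725). At 4 hr after challenge every mouse, at 396 to 575 CPM, was again above every abstinent mouse, as in 2.73% of all genes. The change of 0.53 was not called (adjusted p = 0.0952). It was called with the experiment as a covariate (adjusted p = 0.0488), without a filter on low counts (0.00101) and by 1 F test over the times (0.00975). Egr1 at 2 hr after challenge, at 0.68 (adjusted p = 0.095), was likewise called without the filter (0.000142) and by the F test (6.34e-05).

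Nab2, the corepressor gene described as inducible, changed at 1 hr. Naive mice had 63.0, 64.5, 61.0 and 58.3 CPM, a narrow group, and mice 1 hr after acute cocaine had 103, 114, 99.3 and 100.0 CPM. The log2 fold change was 0.79 (SE 0.12, adjusted p = 3.17e-06), with every mouse above every naive mouse. At 2 and 4 hr the values were back at 50.3 to 69.5 CPM, and the differences of -0.04 and 0.02 were not called. Leaving out naive mouse 1 gave 0.80 at 1 hr.

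After repeated cocaine Nab2 had 56.1, 62.9, 59.5 and 78.3 CPM at 0 hr and 78.3, 63.5, 77.9 and 75.5 CPM at 1 hr. These groups overlap, through 0 hr mouse 4, and the difference of 0.20 (SE 0.12) was not called (adjusted p = 0.924). After challenge it went from 58.7, 62.2 and 65.0 CPM to 83.2, 104, 84.3 and 75.9 CPM (log2 fold change 0.50, SE 0.12, adjusted p = 0.0412). The challenge groups did not overlap, and 3.5% of all genes lay wholly above in the same way. The call was lost without any 1 of 6 of the 7 mice (log2 fold change 0.40 to 0.53, adjusted p = 0.0526 to 0.379) and when the libraries of a mouse were summed over runs (adjusted p = 0.123).

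Nab2 lies on chr10:127660918-127668568, minus strand, and its 3′ end shares 40 exonic bases with the end of Stat6 on the other strand. The strand setting of the counting was not given in the sources used here. Stat6, a signal transducer of cytokine receptors, differed between 1 and 0 hr by 0.00, -0.01 and -0.19 on the log2 scale after acute, repeated and challenge cocaine in the DS (SE 0.21 to 0.22), none called, and was at 6.57 to 17.8 CPM in the DS libraries fitted. An antisense gene, Gm16229, lies within Nab2, and Nemp1 overlaps its 5′ end; how reads there were divided was not tested.

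Nab1, the constitutive corepressor, was counted at 16.8 to 37.4 CPM in the DS libraries fitted and at 17.7 to 47.2 CPM in the shared run. It was called in none of 9 DS contrasts. Naive mice had 23.7, 17.3, 16.8 and 17.4 CPM, where the high value is mouse 1, and mice 1 hr after acute cocaine had 20.7, 19.9, 23.9 and 25.2 CPM. The difference was 0.27 (SE 0.15, adjusted p = 0.657), and 0.40 without mouse 1 (adjusted p = 0.75). The DS differences over all times and experiences ran from -0.03 to 0.35, the largest at 2 hr after acute cocaine (adjusted p = 0.241). Nab1 counts depended on the sequencing run: in the 8 acute mice sequenced in 2 runs, the CPM of the second library was 1.47 to 2.34 times that of the first (median 1.73), against 0.810 to 1.21 for Nab2, 1.07 to 1.33 for Egr3 and 1.01 to 1.16 for Egr4. In repeated and challenged mice Nab1 ran from 0.681 to 1.72 and from 0.586 to 1.48 times, and Egr4 from 0.451 to 0.891 and from 0.420 to 1.19 times.

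Both corepressors are counted in the same library, so their ratio does not depend on library scaling. The counting of 3′ ends does not make the ratio one of molecules, and only its change is read here. The log2 ratio of Nab2 to Nab1 was 1.72 ± 0.22 (SD, n = 4) in naive mice and 2.21 ± 0.24 (n = 4) 1 hr after acute cocaine, and the 4 values at 1 hr, from 1.98 to 2.51, all lay above the highest naive value of 1.87. The difference of 0.50 had p = 0.0286 in an exact two-sided permutation test, the smallest p that 4 against 4 mice allow, and 0.0857 after adjustment over the 3 experiences. After repeated cocaine the ratio was 1.31 ± 0.30 (n = 4) at 0 hr and 1.26 ± 0.32 (n = 4) at 1 hr (exact permutation p = 0.771). After challenge it was 1.21 ± 0.15 (n = 3) and 1.73 ± 0.38 (n = 4), overlapping at 1.28 in a mouse (exact permutation p = 0.114, adjusted 0.171). Without naive mouse 1, which had the lowest naive Nab2 to Nab1 ratio of 1.40, the acute change was 0.39. In the shared run, with 2 mice per group, the changes in the Nab2 to Nab1 ratio were 0.98 after acute, 0.24 after repeated and 0.20 after challenge cocaine. The 0 hr ratios depended on the run. Naive mice 3 and 4 had 1.85 and 1.73 in the libraries fitted but 0.65 and 0.31 in the shared run. There repeated mice had 0.66 and 0.65 and abstinent mice 1.15 and 1.70, so the order of the experiences at 0 hr did not hold.

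**Figure D2:**
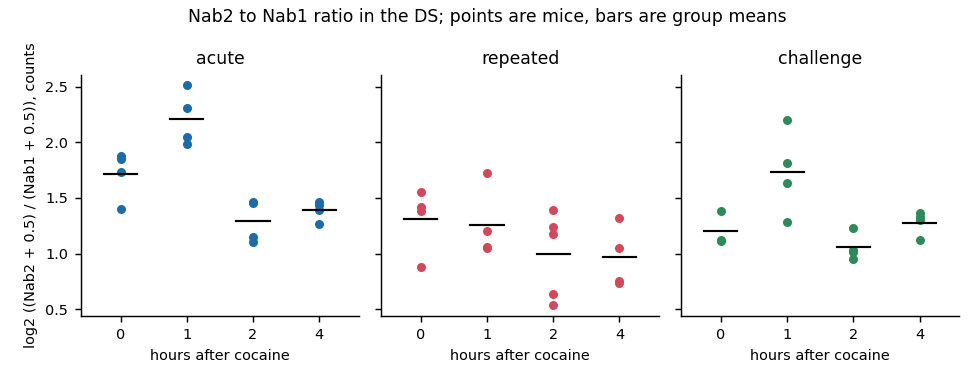
Log2 ratio of Nab2 to Nab1 counts (0.5 added to each) in each DS mouse at 0, 1, 2 and 4 hr, 1 panel per experience, with bars at group means. After acute cocaine the mice at 1 hr lie above all naive mice, at 1.98 to 2.51 against 1.40 to 1.87, and at 2 hr the mean is 1.29; after repeated cocaine the 0 and 1 hr mice overlap.

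Whether the DS response depended on experience was tested as the difference between changes. None of the 5 members was called in any of 6 such contrasts at 1 and 2 hr, in which 0% to 0.00774% of all genes were called. Unadjusted p was under 0.05 in 5 of the 30 values, and in 426 to 1037 of 12918 genes per contrast. DESeq2 called no member. The lowest adjusted p was that of Nab2 for repeated minus acute at 1 hr, a log2 difference of -0.59 (SE 0.17, unadjusted p = 0.00069, adjusted p = 0.378). Egr3 differed by -0.56 (SE 0.17, adjusted p = 0.556) for repeated minus acute and by -0.59 (SE 0.17, adjusted p = 0.418) for challenge minus acute at 1 hr. Without the filter on low counts edgeR called both Egr3 differences (-0.57 and -0.60, adjusted p = 0.0369 and 0.0195). Egr4 differed by -0.45 and -0.49 (SE 0.27 each) in the same contrasts and Egr1 by -0.46 and -0.59 (SE 0.24 each).

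Acute and repeated libraries came from different runs, so the same values were taken from the run that held 2 mice of every group. There the 1 hr change of Egr4 was 2.43, 2.12 and 1.76 after acute, repeated and challenge cocaine, and that of Egr1 1.28, 1.28 and 0.70, all 6 called. Nab2 changed by 0.98 (SE 0.22, adjusted p = 0.0151) after acute cocaine, and its values after repeated (0.34) and challenge (0.38) were not called. Egr3 was at 0.72, 0.54 and 0.50 at 1 hr with none called, the acute value at adjusted p = 0.0675. The differences between experiences within that run were -0.65 for Nab2 (SE 0.32) and -0.18 for Egr3 (SE 0.26) in repeated minus acute, neither called. With 2 mice per group 7 of the 17 DS calls were made, all at 1 hr.

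Genes with the most similar DS profile were found by the mean absolute difference in log2 fold change over the 9 DS contrasts, among 12918 genes. The contrasts of an experience share their 0 hr mice. Egr4 was closest to Fosl2, an AP-1 family member, at a mean difference of 0.116. Next for Egr4 came its relative Egr2 (0.409) and Nr4a1 (0.477), a nuclear receptor induced as an immediate-early gene. Egr2 itself changed at 1 hr by 3.36, 2.91 and 2.14 after acute, repeated and challenge cocaine in the DS, more than Egr4 in each.

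Egr1 was closest to Midn (0.161), Slc25a25 (0.174), a mitochondrial carrier gene, and Gm13889 (0.182). Egr3 was closest to Homer1 (0.122), a postsynaptic scaffold gene, followed by Dock6 (0.152) and Ina (0.165), an intermediate filament gene. The profile of Homer1 was 0.53, 0.57 and 0.61 at 1, 2 and 4 hr after acute cocaine, flat over these times as in Egr3. Nab2 was closest to Sox8 (0.115), Tob2 (0.117) and Cited2 (0.129). The Sox8 profile was 0.61, -0.13 and -0.14 after acute cocaine, high at 1 hr and near 0 later.

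The partners and targets of the pathway were counted in lists. Of the 13 NuRD and histone deacetylase genes described as partners of NAB proteins, and of the 15 kinases and factors upstream of Egr transcription, none was called at 1 hr in any DS experience. Their medians of log2 fold change ran from -0.07 to 0.07, where the median over all genes was -0.01 to 0.00. Of 17 genes described as Egr targets 14 were tested, and 3, 1 and 2 were called, all higher, after acute, repeated and challenge cocaine, where 1.05%, 0.263% and 0.348% of all genes were called. These were Arc, a gene of synaptic scaling, at 2.16, 2.37 and 1.67, Gadd45b, a stress-response gene linked to DNA demethylation, at 1.26 after acute and 0.92 after challenge, and Vegfa, a vascular growth factor gene, at 0.71 after acute cocaine.

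The median of the 14 targets was 0.14, -0.02 and -0.03 in the 3 experiences. None of 6 tested factors that share GC-rich sites with Egr proteins was called in any experience, with medians of 0.32, 0.03 and 0.05 beside the same shares of all genes. Markers of striatal projection neurons, oligodendrocytes, endothelium, choroid plexus, blood and lateral hypothalamus had no call at 1 hr in the DS. The medians of log2 fold change of the 3 choroid plexus markers were -0.46, -0.48 and -0.04 after acute, repeated and challenge cocaine, and those of the 3 blood markers tested 0.21, 0.24 and 0.37. Cortical excitatory neuron markers, 0 of 4 called, had medians of -1.14, 0.40 and 0.02: their sum was 24.2 to 70.8 CPM in naive mice and 14.1 to 38.9 CPM 1 hr after acute cocaine, and 5.87 to 26.6 and 10.7 to 29.1 CPM at 0 and 1 hr for repeated cocaine. The part of these markers in the changes of the members was not tested.

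In the other structures Egr4 was again the member called most often, and Nab1 and Nab2 were called in none of their time-course contrasts. In the NAc 1 hr after acute cocaine 2 of 5 members were called (0.1% of all genes), and Egr4 alone after repeated and after challenge (0.0617% each). Egr4 went from 34.5, 46.8, 41.6 and 36.9 CPM to 72.5, 85.0, 73.1 and 111 CPM after acute cocaine. There was no overlap, as in 1.74% of all genes that lay wholly above (log2 fold change 1.08, SE 0.14, adjusted p = 2.94e-06). After repeated cocaine it went from 36.4 and 44.1 to 86.3 and 78.3 CPM (1.03, SE 0.19, adjusted p = 0.00816), a call lost without any 1 of 3 of these 4 mice (adjusted p = 0.0847 to 0.574). After challenge it went from 51.4 and 44.8 to 113, 104, 112 and 105 CPM (1.22, SE 0.16, adjusted p = 1.41e-05).

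Egr1 in the NAc rose after acute cocaine from 160.2, 163, 184 and 145 CPM to 241, 272, 266 and 313 CPM. The groups did not overlap, as in 1.74% of all genes that lay wholly above (log2 fold change 0.74, SE 0.14, adjusted p = 0.00447). The Egr1 call was lost without naive mouse 4 (adjusted p = 0.0668) or without mouse 4 of the 1 hr group (0.074). Its values of 0.42 after repeated and 0.43 after challenge cocaine were not called. Without the filter on low counts Egr1 and Egr3 were called 1 hr after challenge in the NAc (0.42 and 0.41, adjusted p = 0.0143 and 0.0375). By 4 hr Egr4 after acute cocaine was at 30.5 to 33.4 CPM, against 34.5 to 46.8 CPM in naive mice. The share of all genes that lay wholly below was not counted. The difference of -0.35 (SE 0.16) was not called (adjusted p = 0.791), and 0.0386% of genes were. By 1 F test over the times Egr4 was called (adjusted p = 9.90e-09), a p over all times and not of 4 hr alone. No member was called at 2 or 4 hr in the NAc, where at most 0.0386% of genes were (0.00771% at 4 hr after repeated and 0.0231% at 2 hr after challenge cocaine).

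In the LCtx Egr4 was the 1 member called, 1 hr after repeated (0.0521% of genes) and after challenge cocaine (0.0297%). It went from 45.7 and 49.0 to 96.1 and 119 CPM after repeated cocaine (log2 fold change 1.18, SE 0.22, adjusted p = 0.0101), and from 87.8 and 67.6 to 189, 131, 182 and 112 CPM after challenge (1.00, SE 0.19, adjusted p = 0.0204). Neither pair of groups overlapped, as in 17.3% of all genes for repeated and 4.92% for challenge, but the first call was lost without any 1 of 3 of 4 mice and the second without any 1 of 4 of 6 (adjusted p = 0.087 to 0.882). After acute cocaine Egr4 was at 80.2, 45.7 and 70.1 CPM at 0 hr and 91.6 and 123 CPM at 1 hr (0.67, SE 0.19, adjusted p = 0.127), and 2 hr after repeated cocaine at 114 and 77.2 CPM (1.02, SE 0.22, adjusted p = 0.142). With the run as a covariate both were called (adjusted p = 0.0492 and 0.0414). Blood markers summed to 7166 to 12034 CPM in all 8 LCtx libraries of the acute experience, 0 hr included, and to 294 to 999 CPM in the LCtx libraries of the other experiences, and their part in the acute values was not tested.

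Egr3 in the LCtx differed between 1 and 0 hr by -0.29 after acute and by -0.36 after repeated cocaine, neither of them called. The acute mice had 188 to 216 CPM at 0 hr and 179 and 163 CPM at 1 hr.

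In the Amy none of 45 member values was called. Unadjusted p was under 0.05 in 16 of them, and in 451 to 849 of 12890 genes per contrast. DESeq2 called no member. Egr4 was at 39.6 and 27.3 CPM at 0 hr and 67.7 and 66.2 CPM at 1 hr after acute cocaine (log2 difference 1.00, SE 0.22, adjusted p = 0.0971). After challenge it was at 47.3, 51.1 and 27.1 CPM and then at 58.4, 52.7, 80.9 and 68.5 CPM (0.69, SE 0.16, adjusted p = 0.0972). Both passed with the sequencing run as a covariate (adjusted p = 0.0393 and 0.0315). The shares of all genes called at 1 hr in the Amy were 0.0155%, 0.0233% and 0.0931% after acute, repeated and challenge cocaine, and 0.0543% and 0.00776% at 2 and 4 hr after challenge. Nab2 in the Amy was above every 0 hr mouse 2 hr after challenge, at 53.4 to 65.5 against 38.0 to 48.1 CPM, a difference of 0.49 (SE 0.11) that was not called (adjusted p = 0.11; 3.85% of genes lay wholly above). It was called with the run as a covariate (0.51, adjusted p = 0.0358) and with libraries summed over runs (0.50, adjusted p = 0.0496).

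In the LH Egr1 was called 1 hr after repeated cocaine (0.0302% of genes), from 23.5 and 31.7 CPM to 82.2 and 55.2 CPM (log2 fold change 1.30, SE 0.24, adjusted p = 0.0134). The call was lost without 0 hr mouse 1, 0 hr mouse 2 or 1 hr mouse 1 (adjusted p = 0.0819 to 0.666), and DESeq2 did not make it (adjusted p = 0.296). Those 0 hr mice were low: naive LH mice had 64.1 and 63.3 CPM of Egr1. LH challenge groups were not contrasted, since 1 abstinent mouse was at hand. Differences between experiences in the 1 hr change outside the DS were called for none of 50 member values by edgeR or DESeq2 (0% to 0.00755% of genes), with unadjusted p under 0.05 in 6. Per contrast, 364 to 979 of the 12890 to 13447 genes tested had an unadjusted p under 0.05.

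**Figure D3:**
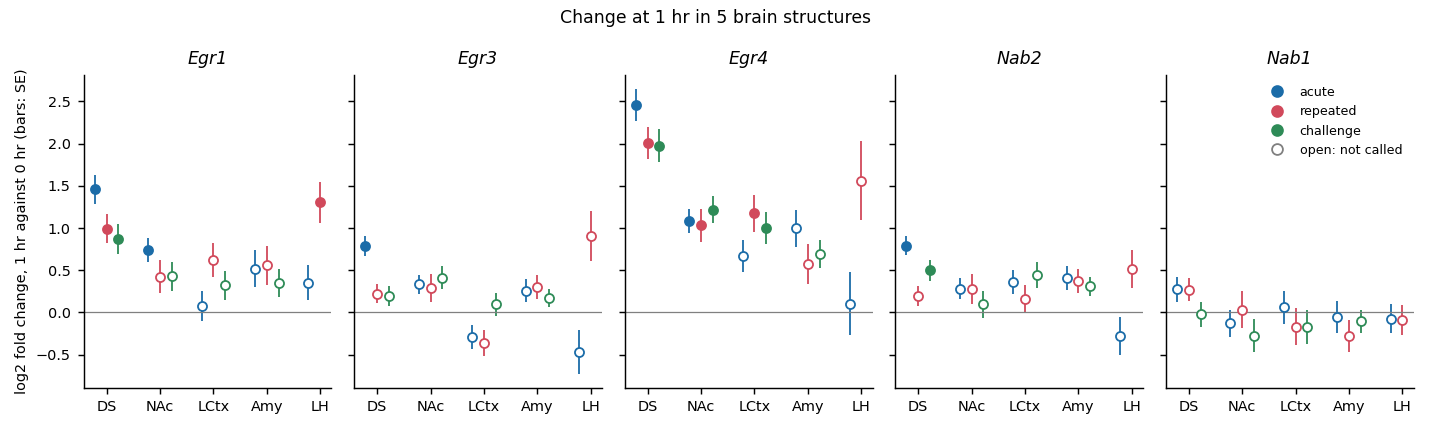
Log2 fold change at 1 hr against 0 hr (points) with its SE (bars) for the 5 members in 5 structures, coloured by experience; filled points passed the test, open points did not, and the LH after challenge has no point. Egr4 in the DS lies highest, at 1.97 to 2.46, Nab1 values lie around 0, and the values of the LH after repeated cocaine rest on the 2 low 0 hr mice.

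The difference in the 1 hr change between the DS and another structure was called in 9 of 55 member values. Egr4 rose more in the DS than in the NAc after acute cocaine by 1.38 (SE 0.26, adjusted p = 0.000886; 0.238% of all genes were called in that contrast). It exceeded the LCtx by 1.80 (SE 0.29; 0.965% of genes), the Amy by 1.47 (SE 0.33; 0.105%) and the LH by 2.37 (SE 0.54; 0.14%). Egr1 and Egr3 rose more in the DS than in the LCtx, by 1.40 and 1.09, Egr3 and Nab2 more than in the LH, by 1.27 and 1.09, all after acute cocaine. Structures share mice, and with the mouse as a block these calls were kept and Egr1 was also called against the NAc (0.74, adjusted p = 0.0109), Amy (0.95, adjusted p = 0.0172) and LH (1.13, adjusted p = 0.00417).

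After challenge the difference of Egr4 between DS and Amy was called, at 1.28 (SE 0.27, adjusted p = 0.0228; 0.035% of genes), though not with DESeq2 (adjusted p = 0.0547). After repeated cocaine no member was called in any of 4 contrasts, in which 0% to 0.00699% of genes were; the Egr4 differences there were 0.98 against the NAc (SE 0.33), 0.84 against the LCtx (SE 0.32), 1.44 against the Amy (SE 0.35) and 0.45 against the LH (SE 0.77). With the mouse as a block, Egr4 after repeated cocaine was called against the NAc (1.26, adjusted p = 0.0316) and the Amy (1.73, adjusted p = 0.000127). Nab2 in the DS exceeded the NAc by 0.52 (SE 0.16, adjusted p = 0.296) after acute cocaine. Structures were sequenced in different runs, and the run cannot be told apart from the structure in these contrasts.

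At 0 hr the 3 Egr genes had a steep gradient over structures, Nab2 was lowest in the LH, and Nab1 had its highest mean in the LH. DS libraries came from runs that held no other structure, so DS differences cannot be told apart from the run for any member. The LH means include repeated mice with low Egr values: naive LH mice alone (n = 2) had means of 63.7, 25.1 and 7.96 CPM of Egr1, Egr3 and Egr4. Over all 0 hr mice the DS had 252 ± 43.4 CPM of Egr3 (SD, n = 11), LCtx 232 ± 29.5 (n = 7), NAc 109 ± 11.8 (n = 8), Amy 96.8 ± 16.1 (n = 7) and LH 17.5 ± 7.40 (n = 5). The DS exceeded the LH by 3.91 on the log2 scale (SE 0.15) in a fit with the mouse as a block, and the neighbours DS and LCtx, and NAc and Amy, did not pass the test. All 5 members were called between DS and LH, as were 56.8% of all genes, and 37 of 50 values over the 10 pairs, in which 21.2% to 56.8% of all genes were called.

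For Egr4 the DS had 64.4 ± 16.9 CPM, LCtx 63.7 ± 17.2, NAc 42.1 ± 5.85, Amy 35.8 ± 10.2 and LH 5.78 ± 2.83. The DS against LCtx and the NAc against Amy again did not pass the test, and the DS was 3.51 (SE 0.19) above the LH. Egr1 was at 342 ± 97.0, 279 ± 50.2, 171 ± 19.8, 124 ± 35.5 and 48.4 ± 19.3 CPM in the same order, and all 10 of its pairs were called. The closest of them, LCtx minus DS (-0.34, SE 0.12), was lost when either of 2 abstinent mice was left out (adjusted p = 0.0827 and 0.076).

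For Nab2 the DS had 62.7 ± 5.87 CPM, NAc 56.5 ± 7.22, LCtx 53.6 ± 3.92, Amy 49.3 ± 6.54 and LH 19.0 ± 3.95. The DS exceeded the LH by 1.79 (SE 0.11), the Amy by 0.38 (SE 0.09), LCtx minus DS was -0.27 (SE 0.09), and no pair among NAc, LCtx and Amy passed the test. The difference from the LCtx lies at the fold threshold and was not called with DESeq2 (-0.26) or when any 1 of 3 mice was left out (-0.25 to -0.22). Nab1 had its highest mean in the LH, at 36.8 ± 4.12 CPM, then LCtx 34.1 ± 2.76, Amy 30.6 ± 3.28, NAc 27.6 ± 3.92 and DS 23.6 ± 5.02, and no 2 neighbours in this order differed past the test. DS minus LH was -0.58 (SE 0.12). This low DS level rests on the libraries used: naive DS mice 3 and 4, at 16.8 and 17.4 CPM here, had 39.4 and 37.9 CPM in the shared DS run, and naive LH mice, from a further run, had 40.8 and 36.3 CPM.

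**Figure D4:**
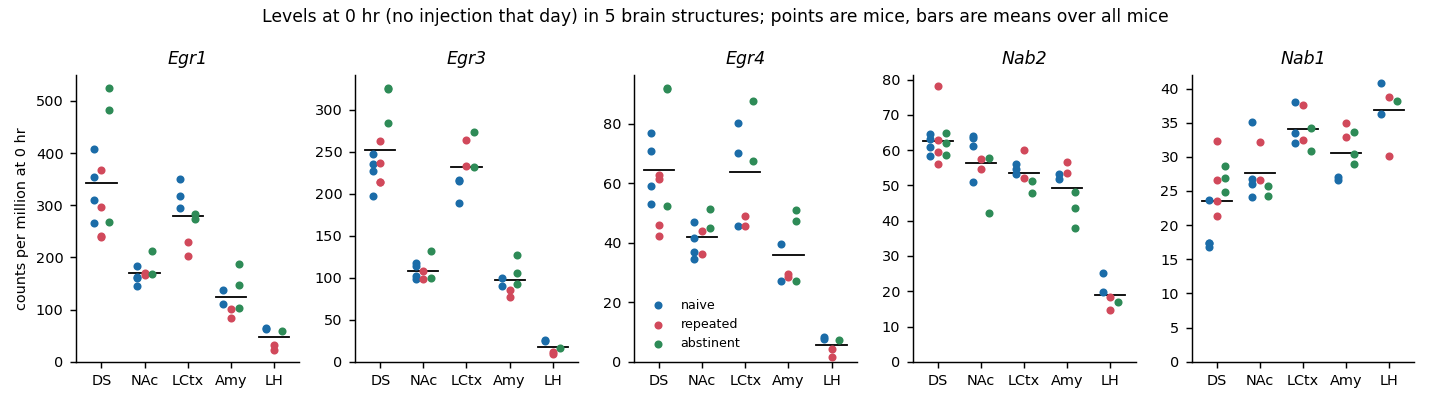
CPM of the 5 members at 0 hr in each mouse (points, coloured by experience) and the mean over all mice (bar) in 5 structures, each gene on its own axis from 0. Egr1, Egr3 and Egr4 are highest in DS and LCtx and lowest in LH, Nab2 is low in the LH at 14.7 to 25.3 CPM, and Nab1 has its highest mean there.

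Baselines were compared at 0 hr within a run where possible, though experiences remained in separate experiments. In the DS none of the members was called for repeated or abstinent against naive mice in the shared run, where 1.86% and 3.48% of genes were. Unadjusted p was under 0.05 in 4 of 10 values, and in 1508 and 1870 of 12297 genes for repeated and abstinent mice. DESeq2 called no member. Egr4 was at 64.9 and 76.5 CPM in naive, 33.3 and 40.6 CPM in repeated and 66.2 and 77.2 CPM in abstinent mice of that run. Repeated minus naive was -0.93 on the log2 scale (SE 0.33, adjusted p = 0.157). Egr3 differed by -0.46 (SE 0.19, adjusted p = 0.253), at 172 and 232 CPM against 263 and 294 CPM in naive mice.

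Egr1 in abstinent minus naive mice was 0.38 (SE 0.16, adjusted p = 0.24), and 1.12 with the replicate number as a block (adjusted p = 0.00447), although the numbers share no mouse across groups.

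For Nab1 and Egr3 the baseline depended on which libraries were used. Egr3 in abstinent minus naive mice was -0.02 (adjusted p = 0.975) in the shared run and 0.40 (adjusted p = 0.0102) over every DS mouse. For Nab1 in the shared run naive mice had 37.9 and 39.4 CPM, repeated mice 31.1 and 35.1 CPM and abstinent mice 17.7 and 34.0 CPM, with differences of -0.23 and -0.55 that were not called. Over every DS mouse, with experiences in different runs, the differences were 0.39 and 0.44 (adjusted p = 0.0355 and 0.0218), opposite in sign. The same naive mice 3 and 4 had 16.8 and 17.4 CPM in the other run.

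In the LH 2 members were lower in repeated than in naive mice of the same run, where 3.01% of genes were called. Egr1 was at 23.5 and 31.7 CPM against 64.1 and 63.3 CPM (log2 difference -1.19, SE 0.18, adjusted p = 3.16e-05). Egr3 was at 9.08 and 12.1 CPM against 24.7 and 25.6 CPM (-1.22, SE 0.30, adjusted p = 0.0114), a call lost without any 1 of 3 of the 4 mice (adjusted p = 0.0558 to 0.21). Egr4 was at 5 and 10 counts against 32 and 23 (-1.49, SE 0.47, adjusted p = 0.0696). It was called without the filter on low counts (-1.50, adjusted p = 0.0381), and the difference was -2.27 without repeated mouse 2.

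Nab1 and Nab2 differed by -0.15 and -0.40 there, neither called. Choroid plexus markers in the LH summed to 83.0 and 111 CPM in those repeated mice and 241 and 385 CPM in the naive ones, and their part in the difference was not tested. Within the Amy, no member was called for repeated against naive mice (0.597% of genes were). The remaining baselines crossed runs, so experience cannot be told apart from the run there. None of their 25 member values was called by edgeR or by DESeq2, with unadjusted p under 0.05 in 3. Per contrast, 1078 to 2539 of the 12890 to 13447 genes tested had an unadjusted p under 0.05. Egr1 in repeated against naive LCtx mice, at -0.58 (adjusted p = 0.16), was called with the run as a covariate (adjusted p = 0.0123). That covariate splits only the challenge libraries. The value was also called without the filter on low counts (adjusted p = 0.000187). The shares of all genes called were 0.201% (repeated) and 4.98% (abstinent) for NAc, 1.23% and 4.35% for LCtx, and 4.26% for abstinent Amy mice.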

How the data were processed

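The deposited table holds raw counts, which the authors made by removing PCR duplicates by UMI, trimming polyA, aligning with STAR to GRCm38 and counting with HTSeq (versions not given in the sources used here), dropping shallow libraries. CPM here are counts scaled to each library's total. One library per mouse was fitted per structure with edgeR 4.0.16 in R 4.3.3 (filterByExpr, TMM, group means, quasi-likelihood F test), with Benjamini-Hochberg adjustment over all genes tested. A call needed an adjusted p under 0.05 and a fold over 1.2. Between-structure fits used all structures. Groups came from the labels, and runs and mice from the sample names. DESeq2 1.42.0, RLE factors, no filter, other library sets, the study's 2-step test and leaving out each mouse were alternatives. The tests were tried on simulated data. Permutation tests were exact (scipy 1.17.1). Named were the 5 members, the 3 nearest profiles of each member called in the DS, list members called, Egr2 and Stat6; others were singled out after their values were seen. The members and lists were chosen with earlier results of these data known. Coordinates are GENCODE M21, promoters RefSeq. P-values measure the spread between mice.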

Additional observations from a re-analysis of the deposited data

Results flagged for a closer look

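In groups of 4 to 10 mice, a value far from the rest of its group was found in 3 of 105 groups of the 5 members, where chance alone gives about 1 in 20 groups. Egr3 in the DS 4 hr after challenge was at 575 CPM in mouse 2 and at 396 to 419 CPM in the other 3. Nab1 in the DS was at 23.7 CPM in naive mouse 1 and at 16.8 to 17.4 CPM in the other 3 naive mice; this is the mouse with high choroid plexus markers. Nab1 in the Amy 2 hr after challenge was at 35.1 CPM in mouse 3 and at 23.5 to 25.2 CPM in the other 3.

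The 1 hr change differed between structures in 9 values by the interaction test in edgeR. After acute cocaine the log2 change of Egr4 was larger in the DS than in the NAc by 1.38, the LCtx by 1.80, the Amy by 1.47 and the LH by 2.37, and after challenge larger than in the Amy by 1.28. After acute cocaine Egr1 exceeded the LCtx by 1.40, Egr3 the LCtx by 1.09 and the LH by 1.27, and Nab2 the LH by 1.09.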

How the results depend on the processing

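The DS time course (17 calls) gave 7 in the shared run and 14 to 19 without 1 mouse. Without a filter on low counts, calls numbered 7 in the LCtx (2 in the main analysis), 6 in the Amy (0), 2 in the LH (1), 6 in the NAc (4), 19 in the DS (17), 2 for DS experience differences (0), 1 for those of other structures (0), 4 for the DS baseline (0), 1 for the NAc and LCtx baseline (0) and 20 for differences between structures in the 1 hr change (9; 14 with the mouse as a block). Egr4 in the LH baseline was also called without the filter. With the run as a covariate calls numbered 4 in the LCtx, 3 in the Amy and 1 for the NAc and LCtx baseline. With 1 F test over the times they numbered 4 in the LCtx, 3 in the Amy and 0 in the LH, and DESeq2 gave 0 in the LH. That F test further called Egr4 in the NAc at 4 hr after acute and at 2 hr after challenge cocaine. In the DS it further called Egr1 at 2 hr and Egr3 at 4 hr after challenge. Its p is that of the gene over all times. Libraries summed over runs gave 1 in the Amy and 15 in the DS (Nab2 at 1 hr and Egr3 at 2 hr after challenge lost). Every DS mouse in the baseline gave 3.

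Without 1 mouse the counts were 1 to 3 in the LCtx, 3 to 4 in the NAc, 0 to 2 in the Amy, 0 to 2 in the LH, 0 to 1 for experience differences outside the DS, 1 to 3 for the Amy and LH baseline, 35 to 38 of the levels between structures, and 0 to 0 for the DS experience differences, the DS baseline and the NAc and LCtx baseline; a lone mouse is then assumed to vary like the other groups. The acute change in the Nab2 to Nab1 ratio ran from 0.39 to 0.57 without 1 mouse and was 0.98 in the shared run; the challenge change of 0.53 was 0.20 there. After repeated cocaine the ratio change of -0.05 turned to 0.24 in the shared run, and to 0.034, 0.022 and 0.018 without 0 hr mouse 4, 1 hr mouse 2 or 1 hr mouse 3, and ran from -0.20 to 0.034 without 1 mouse. DESeq2 gave no adjusted p for 2 called values, which were left out of its counts.

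Replicate numbers share no mouse across groups: in the DS, 27 of 253 pairs of the same number correlated above 0.1 (median 0.003), while in the LH, with 2 per group, 18 of 22 mice correlated best with their own number. The correlations are of deviations from group means, which mirror each other in a group of 2, so the 22 LH mice are not independent. With the replicate block, calls numbered 2 in the Amy (Egr4 at 1 hr after acute and challenge cocaine) and 1 in the DS baseline (Egr1, abstinent, 1.12 against 0.38 without the block), and no other count changed. The cause of these changes was not tested. Low counts limit Egr4 in the LH, where 5 to 32 counts lie behind the 0 hr values of naive and repeated mice.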
